A study of Emberiza melanocephala with 12 samples.

Results

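The comparison set the liver of blackheaded buntings (Emberiza melanocephala) in the photostimulated migratory (M) state against the photorefractory non-migratory (nM) state in the later part of the day. Its members were the 6 libraries of ZT13, ZT17 and ZT21 (hours after lights on), 3 from each state, out of 12 liver libraries in the series, and they were chosen by state and time alone. Each library came from 1 adult male that had been caught in the wild. The M birds (state LDM in the labels) had been kept on short days and were then moved to long days of 16 h light and 8 h darkness until each had shown Zugunruhe, the nocturnal restlessness of caged migrants. The nM birds (state LDR) had become refractory on long days and stayed under the same 16 h light and 8 h darkness. The light schedule, the tissue and the sex were therefore shared, and the state of the bird differed together with its earlier light history, so that the effects of state and of history cannot be told apart. Lights went off at ZT16, so only ZT17 and ZT21 fell in darkness, and the comparison is described here as ZT13 to ZT21 rather than as night. With 1 bird per state at each time, the 3 times of day served as the replicates of a state, and the spread between libraries held both bird and time of day.

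The liver turns dietary carbohydrate into fatty acids in birds, exports them in lipoproteins, keeps blood glucose through glycogen and gluconeogenesis, and makes most plasma proteins. Spring migrants eat more, deposit fat and fly by night, whereas photorefractory birds have ended reproduction and stay lean and active by day. Insulin receptor signaling through phosphatidylinositol 3-kinase (PI3-kinase), glucocorticoids and thyroid hormone all act on the genes of these pathways in vertebrate liver.

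The M library of ZT17 stood apart from the other 5. Its FPKM values (fragments scaled to the length of the gene model and to the mapped reads of the library) summed to 6988410 against 1520194 to 2247124, and 556 of the 9493 genes tested were listed at 0 in it against 18 to 194. Its rank correlation with the other 5 libraries over these genes was 0.660 to 0.806, against 0.962 between the M libraries of ZT13 and ZT21 and 0.932 to 0.954 among the nM libraries. Against the mean of the other M libraries, 1090 genes were more than 2 log2 units higher in it and 1010 more than 2 log2 units lower. The counts of called genes are therefore given with and without that library. The log2 differences and list medians of single genes and lists come from the fit without it unless 6 libraries are named. FPKM holds no read number, so the reads behind a single value are not known from these files and no counting interval is given. The study lists the reads sequenced per library. By that list the M library of ZT17 lay between the M libraries of ZT13 and ZT21, and the nM library of ZT13 had the fewest of the 6.

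Over all 6 libraries a single gene was called as differing between the states, and without the M library of ZT17 10.8% of the genes were. A gene was called at an adjusted p below 0.1 (limma, Benjamini-Hochberg over the 9493 genes with FPKM above 0.1 in at least 5 of the 6 libraries) and a log2 difference beyond 0.1, both being the thresholds of the study. The gene called over 6 libraries was TTR-1, lower in the M state, which made 0.0105% of the genes tested, while 1902 genes had an unadjusted p below 0.05 (770 higher and 1132 lower in the M state). The 3 M libraries lay above all 3 nM libraries in 14.1% of the genes (1334) and below them in 22.6% (2149). Without the M library of ZT17, 1024 genes were called, of which 433 were higher in the M state (4.56%) and 591 lower (6.23%), and TTR-1 was among them. Of these, 382 higher genes (4.02% of those tested) and 573 lower genes (6.04%) also had the M library of ZT17 on the same side of all 3 nM libraries. Most genes whose states did not overlap without that library did so too, called or not. They were 1334 of 1701 higher genes and 2149 of 2544 lower genes. Of the 573 lower genes, 55 were listed at 0 in that library, which left 518 (5.46%) with a value above 0 there. The 955 genes are called here the genes that held in both views. The other 69 called genes had the M library of ZT17 within or beyond the nM range, among them 25 higher genes in which it lay below all nM libraries. These sides were read from FPKM, in which that library had the largest sum, and were not counted under equal totals. With equal totals, 374 of the 955 genes stayed called in the same direction in the fit without that library. Of the 1902 genes with an unadjusted p below 0.05 over 6 libraries, 1729 kept such a p in the same direction and non-overlapping states without the M library of ZT17 (687 higher and 1042 lower). All libraries of the second fit were also in the first, so this is not an independent check.

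**Figure D1:**
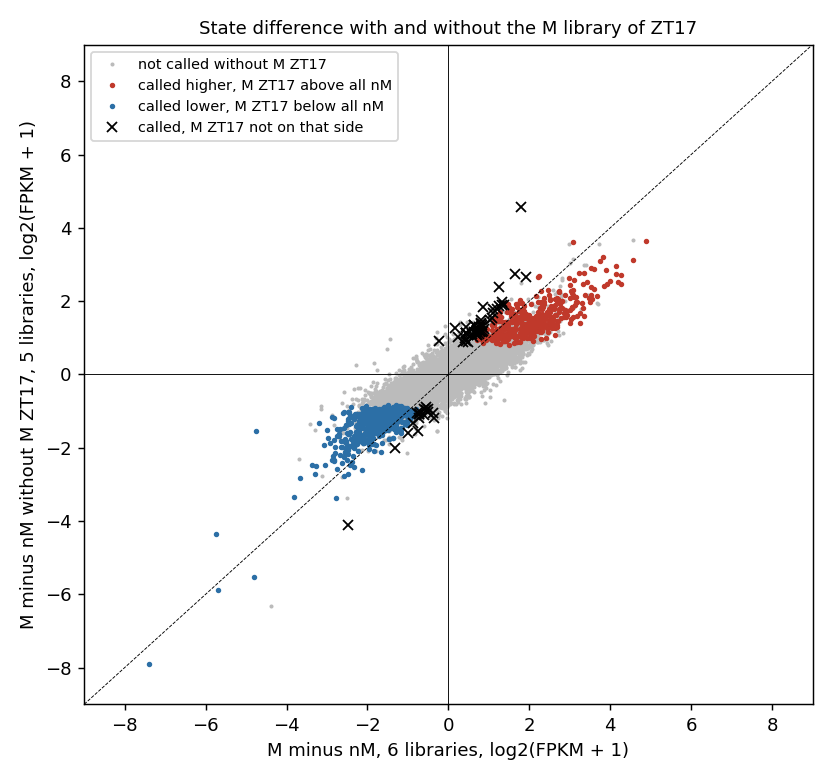
The horizontal axis is the difference of the state means (M minus nM) of log2(FPKM + 1) over 6 libraries and the vertical axis the same difference without the M library of ZT17, with 1 point per gene for 9493 genes. The 382 red and 573 blue points were called on the vertical axis with the M library of ZT17 on the same side of all nM libraries, the 69 crosses were called with that library elsewhere, and the lone point at the lower left is TTR-1.

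The calls without the M library of ZT17 rested on few libraries. Their smallest adjusted p was 0.0393, and leaving out 1 library more gave 1292 calls without the nM library of ZT13, 2 without the M library of ZT13, 1 without the M library of ZT21 and 0 without the nM library of ZT17 or that of ZT21 (limma, with 2063 and 1933 genes at an unadjusted p below 0.05 in the last pair). With time of day as a block, 0 genes were called over 6 libraries and 0 without the M library of ZT17 (limma, with 2042 and 2242 at an unadjusted p below 0.05). In the latter fit the nM library of ZT17 was alone at its time and did not bear on the state difference. In the libraries of darkness alone (ZT17 and ZT21) 0 genes were called (limma, 966 at an unadjusted p below 0.05). With FPKM rescaled to equal totals, 415 genes were called without the M library of ZT17, and the balance turned from 433 higher and 591 lower to 291 higher and 124 lower. The median log2 difference of all genes moved from -0.097 to 0.058 under that scaling, so a pathway is described below beside the median of all genes.

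TTR-1 (ENSTGUG00000010708) carried the largest difference. Its symbol stands for transthyretin, a plasma protein that carries thyroid hormone and, bound to retinol-binding protein, vitamin A. In the M state it measured 23.5, 145 and 113 FPKM at ZT13, ZT17 and ZT21, and in the nM state 12643, 11403 and 13825 FPKM. Every M library lay far below every nM library. The means were 93.9 ± 63.1 and 12624 ± 1211 FPKM (SD, n = 3 per state), which is 134-fold lower in the M state, and the log2 difference was -7.41 (standard error 0.68, limma adjusted p = 0.0909). Without the M library of ZT17 the fold was 185 and the log2 difference -7.90 (adjusted p = 0.0393). Over the alternatives to the fit on 6 libraries the log2 difference stayed between -7.91 and -6.60, while the adjusted p ran from 0.00139 to 0.478 (0.12 with time of day as a block) and the call was lost without any 1 of the 3 nM libraries or the M library of ZT21. RBP4, the retinol-binding protein that travels with transthyretin, was not called and measured 22529, 55895 and 29596 FPKM in the M libraries and 30751, 28576 and 17849 FPKM in the nM libraries.

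The genes named next had the smallest p over 6 libraries among genes with a symbol, a mean of at least 1 FPKM and non-overlapping states. Apart from TTR-1 none of them was called over 6 libraries (adjusted p = 0.197 each), and all were called without the M library of ZT17 with an adjusted p of 0.0393 to 0.0593.

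Among the 12 that were higher in the M state, TGM2 and FKBP5 had the largest log2 differences. FKBP5, a chaperone of the glucocorticoid receptor whose gene is induced by glucocorticoids, measured 12.3, 64.1 and 22.5 FPKM at ZT13, ZT17 and ZT21 in the M state against 1.44, 1.78 and 0.927 FPKM in the nM state. The M values were all above 12 FPKM and the nM values all below 2 FPKM, a log2 difference of 3.53 over 6 libraries and of 2.91 (standard error 0.34) without the M library of ZT17. TGM2, a transglutaminase that crosslinks proteins, measured 14.4, 50.3 and 12.8 FPKM against 1.23, 0.274 and 0.382 FPKM. The M library of ZT17 held the highest value of both genes, and the other M libraries alone gave a 21.6-fold difference for TGM2 and a 12.6-fold difference for FKBP5. CEBPA, a transcription factor that maintains the hepatocyte program, was steady in FPKM within each state at 29.5, 32.8 and 31.9 FPKM against 9.52, 7.71 and 8.66 FPKM, and here the M library of ZT17 lay close to the others. As a share of the FPKM sum of each library, however, CEBPA in the M library of ZT17 lay within the nM range. With equal totals its log2 difference over 6 libraries was 1.30. SLC27A4, a fatty acid transport protein with acyl-CoA synthetase activity, measured 31.4, 71.7 and 36.1 FPKM against 8.63, 6.49 and 8.90 FPKM, and SLC2A6, a member of the glucose transporter family, 7.64, 11.2 and 4.73 FPKM against 0.999, 0.164 and 0.927 FPKM. For these 3 genes the log2 differences were 1.72, 1.96 and 2.09 without the M library of ZT17 and 1.75, 2.31 and 2.36 over 6 libraries. HNRNPA3, an RNA-binding protein of the spliceosome environment, RAD23B, which brings ubiquitylated proteins to the proteasome and acts in nucleotide excision repair, and RCC1-1, whose symbol stands for the exchange factor of the GTPase Ran, rose by 2.59, 2.64 and 2.26 log2 units in the same fit. LMO2, a transcriptional cofactor of blood and endothelial cells, had a log2 difference of 1.92, and FAM82A2, PRRG3 and CCDC177 had 1.65, 2.45 and 2.17.

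Among those that were lower in the M state, the M values were low at every time. AHR, the aryl hydrocarbon receptor that senses xenobiotics, measured 4.13, 4.58 and 4.24 FPKM in the M libraries and 20.6, 40.6 and 25.3 FPKM in the nM libraries. The 3 M values differed by less than 0.5 FPKM, every nM value was above 20 FPKM, and the log2 difference was -2.43 over 6 libraries and -2.47 (standard error 0.34) without the M library of ZT17. REST, a repressor of neuronal genes outside the nervous system, measured 2.65, 4.71 and 2.22 FPKM against 16.1, 26.3 and 23.4 FPKM. The highest M value was more than 3-fold below the lowest nM value. ENPP3, an ectoenzyme that cleaves extracellular nucleotides, had the largest log2 difference after TTR-1, with 2.52, 0.131 and 1.55 FPKM against 19.3, 42.2 and 30.6 FPKM and a log2 difference of -3.34 without the M library of ZT17. SECISBP2L, a relative of the protein that directs selenocysteine incorporation, measured 4.50, 0.709 and 4.64 FPKM against 43.7, 35.1 and 30.0 FPKM, and LONRF2 3.85, 0.476 and 3.56 FPKM against 26.3, 25.3 and 24.2 FPKM. For SECISBP2L and LONRF2 the M library of ZT17 was the lowest of all. DENND4A, a regulator of Rab GTPases, CCDC149, CPED1, KIAA0232 and LDB3 had log2 differences of -2.58, -2.25, -2.39, -2.34 and -2.08 without that library.

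**Figure D2:**
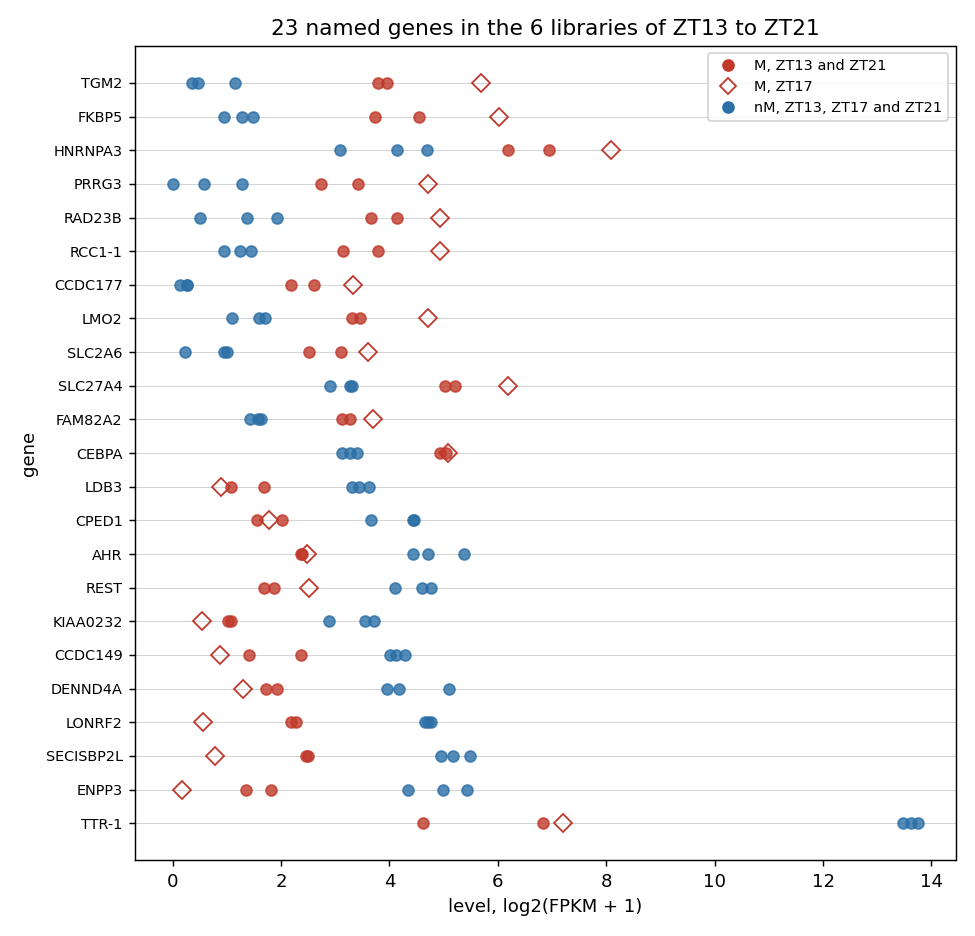
Each row is a gene and each symbol 1 library on a scale of log2(FPKM + 1), with the M libraries of ZT13 and ZT21 as red points, the M library of ZT17 as an open diamond and the 3 nM libraries as blue points. The 12 genes at the top are higher and the 11 at the bottom lower in the M state. All were chosen for states that do not overlap, and the diamond is the highest symbol in each of the 12 upper rows.

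The fit without the M library of ZT17 put further genes among the largest changes. MED21, a subunit of the Mediator complex of transcription, was the largest rise among genes with a symbol at 156 and 88.3 FPKM against 6.61, 9.66 and 9.39 FPKM (log2 difference 3.65, adjusted p = 0.0393), and the M library of ZT17 stood at 1579.8 FPKM. PYCR1, which makes proline, measured 145, 173 and 30.2 FPKM in the M state against 13.7, 6.07 and 8.47 FPKM in the nM state, and PPAT, the enzyme that commits to purine synthesis, 134, 46.9 and 107 FPKM against 34.5, 7.46 and 22.2 FPKM. Both rose, by 2.76 and 2.65 log2 units, with the lowest M value above the highest nM value in FPKM. As a share of the FPKM sum of each library, however, PPAT in the M library of ZT17 lay within the nM range. SH3BP4, which acts in receptor endocytosis, OAF and FAHD1, a mitochondrial oxaloacetate decarboxylase, had log2 differences of 2.78, 2.69 and 2.53. Among the falls, CYP7B1, an oxysterol hydroxylase of the acidic pathway of bile acid synthesis, measured 14.1, 1.85 and 17.1 FPKM against 127, 116 and 104 FPKM. The highest M value was more than 80 FPKM below the lowest nM value, and the log2 difference was -2.81 (standard error 0.25, adjusted p = 0.0393) without the M library of ZT17 and -3.66 with it. IFNGR1, a chain of the interferon gamma receptor, and NIPBL-2, whose symbol stands for the loader of cohesin, were listed at 0 in the M library of ZT17 and had log2 differences of -2.48 and -2.49 in the fit without it. Since genes that every cell uses, such as RPS23 of the ribosome, were listed at 0 in all 6 libraries, a listed 0 is not read as absence.

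Pathway lists were compared by how many of their members were called without the M library of ZT17, beside the 4.56% of all genes called higher and 6.23% called lower. Members had to have a symbol, which only genes that the study listed as differing by state or as cycling in these same libraries have here, so the lists are not independent evidence of a direction. Among the 4043 tested genes with a symbol 5.14% were called higher (208) and 8.56% lower (346). The 19 lists held 447 different genes, of which 412 were tested and 69 called, 45 higher and 24 lower. In FPKM, 66 of the 69 also had the M library of ZT17 on the same side, as had 955 of the 1024 called among all genes. Of the 35 members not tested, 26 were listed at 0 in all 6 libraries, and 7 others were too low in too many libraries for the filter. Among these 7, CDCA3, of the cell cycle, measured 42.8, 47.2 and 44.1 FPKM in the M libraries and 10.3, 0 and 0 FPKM in the nM libraries, and COX19, of cytochrome oxidase assembly, 19.6, 142 and 16.9 FPKM against 0, 0 and 4.78 FPKM. The median log2 difference of all genes was -0.097 in that fit and -0.125 over 6 libraries.

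Genes of growth and RNA handling were called higher. The members counted below are those tested. Of 22 cell cycle and DNA replication genes, 9 were higher and 0 lower, with a list median of 0.72 (0.54 over 6 libraries). CDC20, which turns on the ubiquitin ligase of anaphase, measured 6.06, 5.49 and 5.71 FPKM in the M state against 1.66, 1.92 and 1.10 FPKM, and PLK1, a mitotic kinase, 2.24, 1.90 and 1.38 FPKM against 0, 0.108 and 0.223 FPKM. Both states were low, and every M value was above every nM value in FPKM. As a share of the FPKM sum of each library, CDC20 in the M library of ZT17 lay within the nM range. MAD2L1, of the spindle checkpoint, and the replication genes MCM5, MCM2 and TK1 rose by 1.09, 1.05, 1.07 and 1.32 log2 units, as did CCNF, an F-box protein of the cyclin family, by 1.21. MKI67-5 and RRM2 were called as well, but the M library of ZT17 did not join the other M libraries, at 6.01, 0.996 and 5.03 FPKM against 1.20, 0.943 and 0.967 FPKM for MKI67-5 and at 8.35, 0 and 6.07 FPKM against 2.02, 1.17 and 0.737 FPKM for RRM2. CCNB2, a mitotic cyclin with the fourth smallest p of the list, had a log2 difference of 1.42 and was not called.

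Of 18 SR and hnRNP splicing factors, 6 were higher and 0 lower, with a list median of 0.54 (0.90 over 6 libraries). SRSF6 measured 194, 253 and 138 FPKM against 71.3, 57.0 and 42.1 FPKM, and NONO, a paraspeckle protein, 55.3, 58.7 and 58.6 FPKM against 28.3, 23.5 and 34.3 FPKM. The M values of NONO were within 4 FPKM of each other, including that of ZT17. As a share of the FPKM sum of each library, however, NONO in the M library of ZT17 lay below all nM libraries. HNRNPH3, SFPQ and HNRNPM rose by 2.17, 1.58 and 1.03 log2 units, and HNRNPA3 is given above.

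Of 20 cytosolic ribosomal protein genes, 5 were higher and 0 lower, and the list median was 0.67 without the M library of ZT17 and 1.60 with it. RPL35 measured 393 and 368 FPKM at ZT13 and ZT21 in the M state against 130, 105 and 74.8 FPKM in the nM state, with 4951 FPKM in the M library of ZT17. RPL3, RPL37, RPL12 and RPL30 were the other 4, with log2 differences of 1.41, 1.47, 1.30 and 0.99 without that library. In each of the 5 the M library of ZT17 was more than 6 times as high as the other M libraries. Of 21 genes of the mitochondrial ribosome 1 was called, a share near that of all genes. It was MRPL46 (49.3, 414 and 66.5 FPKM against 17.8, 14.1 and 15.6 FPKM), and the list median was 0.26 (0.95 over 6 libraries). MRPL30, MRPL39 and MRPL48 had log2 differences of 0.88, 0.81 and 0.80 and were not called.

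Among the genes of sugar metabolism, 6 of 28 were higher and 0 lower, or 3 of 28 with equal totals, and the list median was 0.25 (0.36 over 6 libraries). PYGL, the liver glycogen phosphorylase, measured 209, 661 and 242 FPKM in the M state against 120, 112 and 125 FPKM in the nM state. The nM values spanned less than 14 FPKM and the lowest M value was well above them, for a log2 difference of 0.91 (standard error 0.24, adjusted p = 0.0841) without the M library of ZT17. GALK1 and GALK2, which phosphorylate galactose and N-acetylgalactosamine, IDNK, a gluconate kinase, and TIGAR, a phosphatase that turns flux from glycolysis to the pentose phosphate pathway, rose by 1.76, 1.48, 1.74 and 1.84 log2 units. PPP1R3B, a subunit that directs protein phosphatase 1 to glycogen, was the sixth, at 108 and 108 FPKM against 43.1, 29.5 and 62.8 FPKM, but its value in the M library of ZT17 was below all nM libraries.

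Of 28 genes of the respiratory chain and citrate cycle, 4 were higher and 0 lower, all 4 being subunits of complex I or ATP synthase. NDUFB9 measured 253 and 216 FPKM against 104, 100 and 103 FPKM, and NDUFV1 35.3 and 36.3 FPKM against 13.4, 9.81 and 10.7 FPKM. The M library of ZT17 stood at 2107 and 999 FPKM for these genes, well above either group. NDUFB2 and ATP5L had log2 differences of 2.53 and 1.41. The list median was 0.095 without the M library of ZT17 and 0.84 with it, so most of its difference over 6 libraries came with that library.

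In lipid metabolism few genes were called, and they did not move in 1 direction. Of 28 genes of fatty acid and triglyceride synthesis, 0 were higher and 2 lower (limma without the M library of ZT17), a share near that of all genes. The list median was -0.043 beside -0.097 for all genes, and 0.14 beside 0.058 with equal totals. ACSL3, which activates fatty acids for lipid droplets, measured 2.41, 1.34 and 3.55 FPKM in the M state and 12.8, 13.3 and 13.9 FPKM in the nM state. The nM values lay within 2 FPKM and every M value was below 4 FPKM, a log2 difference of -1.86 (standard error 0.25, adjusted p = 0.0470). CIDEA, a lipid droplet protein, measured 85.8, 26.9 and 144 FPKM against 243, 222 and 345 FPKM with a log2 difference of -1.25. ACSL5 and LPIN1, the latter a phosphatidate phosphatase, had log2 differences of -1.28 and -2.14 and were not called, with LPIN1 in the nM state spread over 16.8, 30.4 and 121 FPKM. Of 19 genes of beta-oxidation and ketogenesis 1 was called, again a share near that of all genes. It was PPARGC1A, a coactivator of mitochondrial and gluconeogenic genes, lower at 0.739, 0 and 0.700 FPKM against 1.93, 3.46 and 4.98 FPKM. CPT2 and HADH, enzymes of mitochondrial fatty acid oxidation, and PPARA, the receptor that induces them, had log2 differences of -0.97, -0.87 and -1.25, all short of the call (adjusted p = 0.125, 0.128 and 0.139). Of 18 genes of lipid uptake and release, SLC27A4 and ADIPOR1, an adiponectin receptor, were higher and 0 lower. ADIPOR1 measured 114, 378 and 130 FPKM against 45.3, 35.4 and 26.4 FPKM. APOB, the structural protein of lipoproteins, and PNPLA2, the triglyceride lipase of lipid droplets, had log2 differences of -0.83 and -1.64 and were not called.

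Of 23 genes of sterol and bile acid synthesis, 2 were higher and 2 lower, beside 5.14% and 8.56% of the tested genes with a symbol. With equal totals 1 was higher and 1 lower. The list median was -0.077 beside -0.097 for all genes, and 0.11 beside 0.058 with equal totals. CYP7B1 and CYP46A1, which hydroxylates cholesterol, were the lower pair, the latter at 266, 93.6 and 360 FPKM against 599, 579 and 632 FPKM. CYP27A1, the mitochondrial sterol hydroxylase that precedes CYP7B1 in the acidic pathway, measured 282, 1174 and 283 FPKM against 162, 165 and 154 FPKM and rose by 0.81 log2 units. MVD, an enzyme of the mevalonate pathway, measured 8.06, 200 and 10.3 FPKM against 0.408, 1.88 and 0.477 FPKM and rose by 2.48. In the nM state MVD was near or below 2 FPKM in every library. AKR1D1, which reduces bile acid precursors, had a log2 difference of 2.01 and INSIG2, which retains the sterol sensor in the endoplasmic reticulum, of -1.16, and neither was called.

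**Figure D3:**
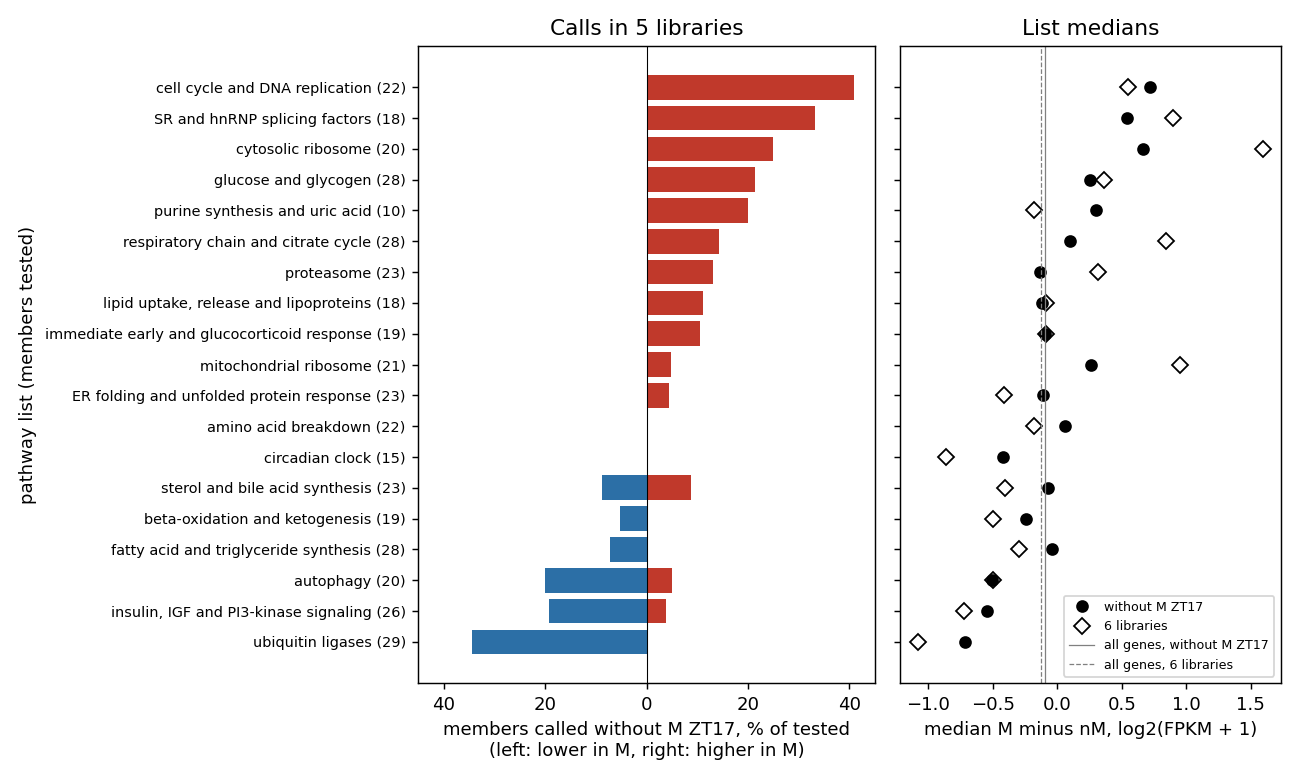
The left panel gives, for each of 19 pathway lists, the percentage of tested members called higher (red, right) or lower (blue, left) in the M state without the M library of ZT17. The right panel gives the median difference (M minus nM) of log2(FPKM + 1) of each list with (diamonds) and without (points) that library, beside the medians of all genes at -0.125 and -0.097, and shows the largest gap between both views for the cytosolic ribosome, at 1.60 and 0.67.

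Insulin signaling, ubiquitin ligases and autophagy were the lists with several lower members. Of 26 genes of insulin, IGF and PI3-kinase signaling, 5 were lower and 1 higher, with a list median of -0.54 (-0.72 over 6 libraries). INSR, the insulin receptor, measured 7.92, 5.06 and 9.18 FPKM in the M state against 17.8, 20.4 and 25.7 FPKM in the nM state, and PIK3R1, the regulatory subunit of PI3-kinase, 21.6, 0.763 and 15.8 FPKM against 53.5, 80.2 and 91.4 FPKM. Neither overlapped, and the log2 differences without the M library of ZT17 were -1.21 (adjusted p = 0.0650) and -1.93 (adjusted p = 0.0470), against -1.43 and -3.08 over 6 libraries. PIK3C2A, a class II PI3-kinase, PDPK1, the kinase that activates AKT, and PHLPP2, a phosphatase that inactivates AKT, had log2 differences of -1.86, -1.02 and -0.96. The higher gene was INPPL1, a phosphatase that opposes PI3-kinase, at 2.64, 6.57 and 2.44 FPKM against 0.896, 1.13 and 0.799 FPKM. With equal totals 2 of the 5 lower calls were left and INPPL1 was not called.

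Of 29 ubiquitin ligases and their subunits, 10 were lower and 0 higher, with a list median of -0.71 (-1.08 over 6 libraries). UBR1, which recognizes N-terminal degrons, measured 2.99, 1.01 and 3.11 FPKM against 8.91, 11.1 and 11.9 FPKM. MDM2, the ligase of p53, measured 6.70, 5.23 and 4.81 FPKM against 18.1, 13.6 and 21.2 FPKM, and CUL5, a cullin scaffold, 8.16, 3.47 and 6.91 FPKM against 24.8, 20.4 and 19.7 FPKM. All M values of these 3 genes were below all nM values. FBXL4, TRIP12, UBE3C, CUL4A and TRAF6 had log2 differences of -1.45, -1.38, -1.08, -1.04 and -1.05, and ITCH had the smallest of the 10. The number called was 7 with the median-ratio scaling and 1 with equal totals, while the list median stayed below that of all genes, at -0.54 against 0.058 with equal totals.

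The proteasome, which degrades what the ligases mark, had 3 of 23 members higher and 0 lower without the M library of ZT17. PSMD7, PSMD2 and PSMD1, of its regulatory particle, rose by 1.55, 1.19 and 1.70 log2 units, and PSMA3 had 1.27 and was not called. The list median was -0.13 without that library, 0.055 with equal totals and 0.32 over 6 libraries, and with equal totals 0 members were called. Of 20 autophagy genes, 4 were lower and 1 higher, with a list median of -0.51 (-0.50 over 6 libraries). LAMP2, a lysosomal membrane protein, measured 6.41, 1.99 and 7.29 FPKM against 13.7, 28.4 and 23.9 FPKM, and BNIP3L, a receptor for mitochondria in autophagy, 38.7, 18.5 and 44.2 FPKM against 70.8, 115 and 110 FPKM. WDFY3 and FYCO1, which act on aggregates and on autophagosome transport, had log2 differences of -1.53 and -1.74, whereas ATG7, the activating enzyme of autophagic conjugation, rose from 0.596, 0.237 and 0.446 FPKM in the nM state to 2.25, 12.3 and 2.70 FPKM in the M state. With equal totals 2 of the autophagy genes were lower and 1 higher.

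The remaining lists held few calls. Of 15 circadian clock genes 0 were called (limma without the M library of ZT17). The list median was nonetheless below that of all genes, at -0.42 (-0.87 over 6 libraries, and -0.33 without that library under equal totals). The list summed to 309 to 483 FPKM in the M libraries and 639 to 801 FPKM in the nM libraries. ARNTL2, a relative of the activator BMAL1, had the smallest p over 6 libraries, with 4.91, 1.77 and 5.87 FPKM in the M libraries and 11.3, 35.9 and 16.2 FPKM in the nM libraries. The states did not overlap, but the log2 difference of -1.64 missed the threshold (adjusted p = 0.104). NFIL3, BHLHE40 and FBXL21 had log2 differences of -1.90, 1.71 and -0.51, and all 3 overlapped between states. Of 19 immediate early and glucocorticoid response genes, FKBP5 and KLF2 were higher and 0 lower, KLF2 at 1.82, 6.01 and 2.63 FPKM against 0, 0.697 and 0.353 FPKM. EGR1, an immediate early transcription factor, measured 18.6, 12.6 and 18.6 FPKM against 30.6, 59.4 and 77.6 FPKM and missed the call (log2 difference -1.44, adjusted p = 0.102), as did SOCS2, a suppressor of growth hormone signaling (-1.50). Of 10 genes of purine synthesis and uric acid formation, the form in which birds excrete nitrogen, PPAT and SHMT1 were higher, SHMT1 at 446, 863 and 342 FPKM against 74.2, 67.1 and 189 FPKM, whereas ADSL and GDA were not called (0.80 and -0.76). None of 22 genes of amino acid breakdown was called, and HPD, PRODH, TAT and HIBCH had log2 differences of 1.48, 1.53, 0.74 and -0.68. Of 23 genes of folding in the endoplasmic reticulum, DDOST, a subunit of the oligosaccharyltransferase, was higher (1.16), and STT3A, DNAJB9 and SEL1L were not called (1.19, -1.56 and -1.08).

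Part of the leukocyte and Kupffer cell markers were higher in the M state at ZT13 and ZT21. The summed FPKM of the 21 markers was 594 to 949 in the M libraries and 239 to 315 in the nM libraries. As a share of the FPKM sum of each library, however, it was 357 and 380 per 1000000 in the M libraries of ZT13 and ZT21, 136 in that of ZT17 and 130 to 157 in the nM libraries, so under equal totals the M library of ZT17 lay within the nM range. Of the 15 markers tested, 8 were higher and 0 lower without the M library of ZT17, beside 4.56% of all genes higher and 6.23% lower. For 5 of the 8 that library also lay above all nM libraries. Another 5 markers, BTK, HCLS1, CD28, C1QB and C1QC, were listed at 0 in all 6 libraries. CSF1R, the receptor of macrophage growth factor, measured 38.5, 10.7 and 42.3 FPKM against 13.6, 8.27 and 9.91 FPKM, and CYBA, of the phagocyte oxidase, 8.18, 23.8 and 7.46 FPKM against 0.915, 2.41 and 1.30 FPKM. CD14, RAC2, LAPTM5, SPI1 and LCP1 had log2 differences of 1.64, 1.46, 1.25, 1.10 and 0.90. PTPRC, the common leukocyte antigen, did not follow them, at 14.4, 0.708 and 14.6 FPKM against 16.6, 30.6 and 11.8 FPKM. In bulk liver, more cells of a type and more RNA per cell cannot be told apart, and the part of these cells in the other differences, among them the cell cycle genes, was not tested. At ZT1 to ZT9 the summed level of the list overlapped between the states (434 to 694 FPKM in M, 316 to 561 FPKM in nM).

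The tissue itself was plainly liver. The hepatocyte list of 26 genes summed to 64208 to 132894 FPKM. The highest sum was that of the M library of ZT17, but as a share of the FPKM sum of each library the list was lowest there. It made 19016 per 1000000 in that library and 35560.5 to 44210 in the other 5. Of the 23 tested, 1 was called, a share near that of all genes. It was C8A, a complement component (465, 568 and 390 FPKM against 200, 243 and 222 FPKM), while C3, CPN2 and A1CF were listed at 0 in all 6 libraries. As a share of the FPKM sum of each library, C8A in the M library of ZT17 lay below all nM libraries. ALB, serum albumin, measured 20205, 34128 and 17300.2 FPKM in the M libraries and 36842, 28648 and 21574 FPKM in the nM libraries. In FPKM the M library of ZT17 also held the highest sums of erythroid markers (5908 against 153 to 1126), of muscle markers (1545 against 292 to 622) and of endothelial markers (199 against 55.0 to 77.5). As a share of the FPKM sum of each library it stayed the highest for erythroid markers (845 per 1000000 against 101 to 615), but not for muscle markers (221 against 130 to 298) or endothelial markers (28.5 against 26.3 to 42.3). In the nM library of ZT13, TNNT3, of skeletal muscle, was at 428 FPKM and below 1 FPKM in the other 5 libraries. Of the erythroid, muscle, endothelial and pancreas lists 0 members were called without the M library of ZT17 (limma). Of 10 fibroblast genes tested 2 were higher, TCF21 and HAND2, by 1.48 and 1.04 log2 units. The summed fibroblast list was nonetheless lower in every M library, at 181 to 283 FPKM against 288 to 386 FPKM. As a share of the FPKM sum it overlapped between the states (25.9 to 155 per 1000000 in M, 144 to 189 in nM). Of 4 bile duct genes tested 1 was higher, CLDN2, by 1.62 log2 units. Like the leukocyte list, the summed bile duct list was higher in every M library in FPKM, at 133 to 311 against 56.8 to 116. As a share of the FPKM sum it was 72.5 and 98.9 per 1000000 in the M libraries of ZT13 and ZT21. In the M library of ZT17 that share was 44.4, within the nM range of 27.2 to 59.0.

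**Figure D4:**
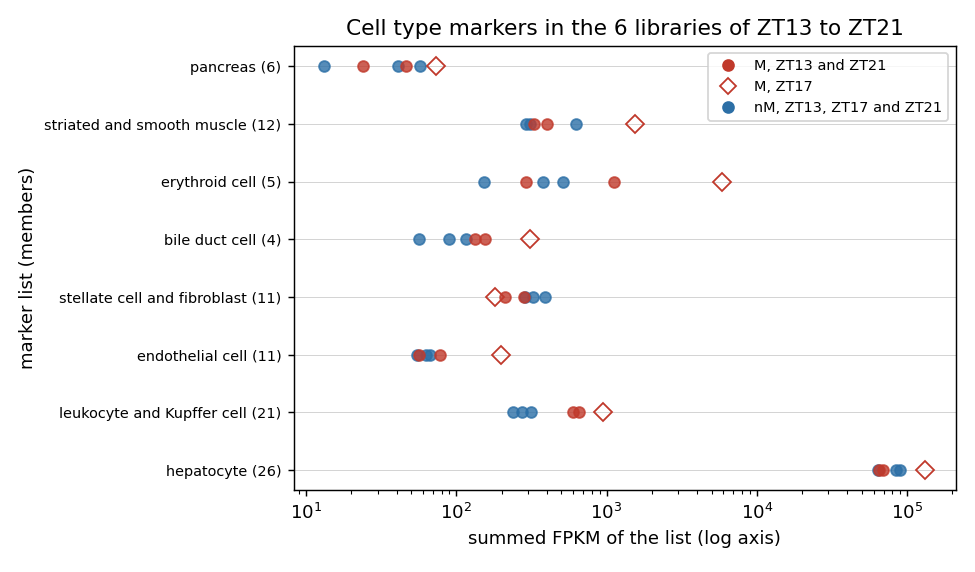
The horizontal axis is the summed FPKM of each marker list on a log axis, with 1 symbol per library of ZT13 to ZT21 (red points for M at ZT13 and ZT21, an open diamond for M at ZT17, blue points for nM) and the number of members in brackets. The leukocyte and Kupffer cell list separates the states in FPKM, at 594 to 949 against 239 to 315, but not under equal totals, where the M library of ZT17 lies within the nM range. The bile duct list does the same, at 133 to 311 against 56.8 to 116 FPKM. The diamond lies far to the right for erythroid cells at 5908 FPKM.

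The same contrast at ZT1 to ZT9 came from 6 other birds and shared no library with the comparison. TTR-1 was again the only gene called there (1 of 9960 genes, with 714 at an unadjusted p below 0.05), at 29.7, 46.1 and 84.1 FPKM in the M libraries of ZT1, ZT5 and ZT9 and 15319, 10148 and 39552 FPKM in the nM libraries. Of the 382 genes that held as higher at ZT13 to ZT21, 350 (91.6%) were also higher in the M state at ZT1 to ZT9, where 45.3% of all genes were, and 34 (8.90%) did not overlap between the states, against 4.92% of all genes. Of the 573 lower genes, 537 (93.7%) were also lower, where 54.7% of all genes were, and 210 (36.6%) did not overlap, against 8.05%. The direction was thus shared by most of these genes, whereas the size was smaller, with a median log2 difference of 0.67 against 1.44 for the higher genes and of -0.70 against -1.26 for the lower genes. The genes had been chosen on their values at ZT13 to ZT21, so the later values are not a free measure of size. REST was of similar size at both sets of times (-2.71 later, -2.41 earlier), whereas TGM2 and AHR were smaller earlier (3.21 and -2.47 later, 0.97 and -1.07 earlier).

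**Figure D5:**
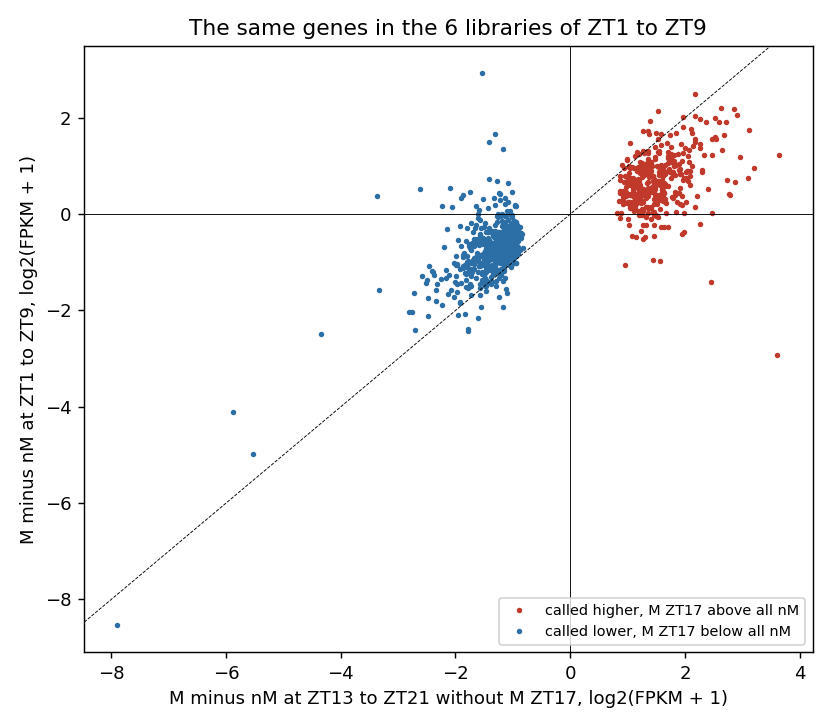
Each point is 1 of the 955 genes that held in both views, with the difference (M minus nM) of log2(FPKM + 1) at ZT13 to ZT21 without the M library of ZT17 on the horizontal axis and at ZT1 to ZT9 on the vertical axis, and a dashed line of equality. Of the red points 91.6% lie above 0 and of the blue points 93.7% below 0 on the vertical axis, mostly closer to 0 than the line, with TTR-1 at the lower left.

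The test of whether a state difference differed between ZT13 to ZT21 and ZT1 to ZT9 called 0 of 9358 genes (limma, interaction of state and part of the day, 419 genes at an unadjusted p below 0.05, smallest adjusted p = 0.72). Those 419 are fewer than that threshold gives where no gene differs. The 5 genes in each direction with the smallest p are given as values from that fit, which took all 12 libraries, the M library of ZT17 among them. Without that library 0 genes were called as well (limma, smallest adjusted p = 0.99). SHMT1, which feeds 1-carbon units to purine and thymidylate synthesis, had a difference of 2.36 log2 units over the 6 libraries of ZT13 to ZT21 and -0.38 at ZT1 to ZT9. Its later states did not overlap in FPKM. As a share of the FPKM sum of each library, SHMT1 in the M library of ZT17 lay within the nM range. ADSL, a purine enzyme, KLF2, ENDOD1 and ACRC likewise had higher differences at ZT13 to ZT21, by 2.63, 2.17, 1.65 and 2.07 log2 units. GATM, which makes the precursor of creatine, CDS1, of phospholipid synthesis, TNFSF10-2, AASDHPPT and the ion channel gene TRPC1 had lower ones, with interaction terms of -3.75, -2.77, -2.94, -2.15 and -1.99 log2 units.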

How the data were processed

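Liver RNA (poly-A selected, unstranded kit, single-end reads) was extracted in 1 batch and sequenced in a single lane. The authors removed ribosomal reads with Bowtie2 2.0.2, used STAR to align what remained to the zebra finch assembly 3.2.4 and estimated FPKM with Cufflinks 2.2.1, so bunting reads were counted on gene models of another species and sequence divergence may lower a value. The deposited FPKM table (18284 genes) was used. The deposited log2 values equalled log2(FPKM + 1) in all 134952 cases within 1e-06 and were not used further. Symbols came from the study's tables of state-dependent and cycling genes, which were chosen on these libraries (4043 of 9493 tested genes), so each list holds only the members those tables name; 7 symbols turned into dates and 30 shared by several IDs were left out.

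Genes with FPKM above 0.1 in at least 5 of 6 libraries were tested by limma 3.58.1 in R 4.3.3 on log2(FPKM + 1), M minus nM, which understates the change of low genes. Scripts were tested on simulated data. P-values measure the spread between single birds at different times; an exact permutation test of 3 against 3 libraries cannot go below 0.1, nor of 2 against 3 below 0.2. Deviations of libraries from their state means correlated weakly between the states at the same time (0.108, 0.116 and 0.17), and at different times by -0.163 to -0.00497. Within a state the deviations cancel out, so these correlations depend on each other. The block of time was fitted as an alternative beside the main fit. Alternatives covered pseudocount, filter, scaling, variance model, weights and left-out libraries. Named genes were the 12 per direction with the largest change among called genes, or else the smallest p (mean of at least 1 FPKM, states not overlapping), the 10 per direction with the largest change without the M library of ZT17, up to 4 members per pathway list with the smallest p over 6 libraries, and 5 per direction for the interaction. Further called list members, RBP4, ALB, PTPRC, TNNT3 and the other marker genes were named after their values were seen. Some genes that these rules name are not reported here. The comparison, lists and rules were chosen with earlier results of these data known. No sequences are shown because no sequence table of this species was used here.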

Additional observations from a re-analysis of the deposited data

Results flagged for a closer look

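In 26 of the 9493 genes the states did not overlap at ZT13 to ZT21 nor at ZT1 to ZT9 and stood in opposite order, and 4 of them are named in the report. These 26 were few beside the 3483 genes whose states did not overlap at ZT13 to ZT21 and the 1231 at ZT1 to ZT9. GATM, which makes the precursor of creatine, measured 806, 100 and 202 FPKM in the M state and 1072, 1388 and 1169.7 FPKM in the nM state at ZT13, ZT17 and ZT21, and 1136, 986 and 2852 FPKM and 429, 476 and 670 FPKM at ZT1, ZT5 and ZT9. It was thus lower in the M state at ZT13 to ZT21 and higher at ZT1 to ZT9, a change of -3.75 log2 units between the sets of times. ACSL5, an acyl-CoA synthetase, changed in the same sense by -2.43 log2 units, with earlier values of 521, 545 and 678 FPKM in the M state and 248, 471 and 464 FPKM in the nM state. ADSL, of purine synthesis, and KLF2, a transcription factor, changed in the opposite sense, by 2.63 and 2.17 log2 units (2.00 for ADSL without the M library of ZT17). For ADSL the earlier values were 422, 801 and 412 FPKM in the M state against 1755, 1207 and 810 FPKM, and for KLF2 1.67, 0.964 and 1.46 FPKM against 3.37, 2.15 and 1.74 FPKM. The interaction of state and part of the day had an adjusted p of 0.72 in each of the 4 genes (limma), so none of these differences passed a test across genes.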

How the results depend on the processing

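Over 6 libraries the count of 1 called gene became 0 with a pseudocount of 0.1, with the median-ratio scaling, without moderation of the variances, with time of day as a replicate block and in the libraries of darkness (ZT17 and ZT21) alone. It became 8 without a filter on low values, 1117 with the spread taken from all 12 libraries and 2175 with library weights, where the M library of ZT17 had a weight of 0.086 against 0.84 to 2.26. With 1 library left out it ran from 0 to 1024, the latter without the M library of ZT17. Without that library, the count of 1024 became 415 with equal totals, 0 with ZT13 and ZT21 alone, 0 with time of day as a replicate block and 20 without moderation of the variances, and with 1 library more left out it ran from 0 to 1292. The fit on ZT13 and ZT21 alone was the same as that without the nM library of ZT17. With the block, that nM library was alone at its time and did not bear on the state difference. The median-ratio scaling gave 603 higher and 454 lower genes in place of 433 and 591. At ZT1 to ZT9 the count of 1 was 4 with the replicate block and 1 to 3 with 1 library left out. The interaction count was 0 to 1 with 1 library left out, the 1 coming without the nM library of ZT5. Of the tested pathway members 0 were called over 6 libraries, 69 without the M library of ZT17, 38 when equal totals were added and 74 when the median ratio was added. None of the 96 genes followed over the alternatives to the fit on 6 libraries, the 20 genes with the largest change without the M library of ZT17 or the 10 interaction genes turned its direction under the alternatives of its own fit. For genes chosen with non-overlapping states only the scalings could have turned it, so the other settings were no test of their direction. RBP4, ALB and the marker genes were not followed. With the block, TTR-1 and the other named genes lost their calls at ZT13 to ZT21. Why the counts depend on single libraries was not tested. The read depth, RNA quality and gene lengths were not analysed here, and these were chosen after seeing the data: all settings of the fit without the M library of ZT17 other than equal totals and the times ZT13 and ZT21 alone, the block and leave-outs at ZT1 to ZT9, the leave-outs of the interaction other than the M library of ZT17, both pathway scalings without that library, and the marker sums under equal totals.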

Other observations

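Some of the largest differences lay in genes that the study's tables do not name. ENSTGUG00000012367 measured 8.34, 14.0 and 9.91 FPKM in the M state at ZT13, ZT17 and ZT21 and 117, 1123 and 1591 FPKM in the nM state, a log2 difference of -5.88 without the M library of ZT17 (limma adjusted p = 0.0515). ENSTGUG00000012313 measured 6.29, 18.5 and 1.52 FPKM against 244, 360 and 86.2 FPKM (-5.53 log2 units). ENSTGUG00000008881 was higher in the M state, at 69.1, 31.7 and 132 FPKM against 7.90, 7.90 and 5.27 FPKM, whereas at ZT1, ZT5 and ZT9 it measured 10.6, 42.3 and 14.4 FPKM in the M state and 1161, 3.64 and 617 FPKM in the nM state. It was the 1 gene whose interaction was called when the nM library of ZT5 was left out. ENSTGUG00000006821 rose by 3.11 log2 units and stood at 1724, 22899 and 761 FPKM in the M state against 118, 215 and 90.0 FPKM. These 4 genes were picked after their values were seen.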
